A study of Mus musculus with 16 samples.

Results

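Transcripts of 9 blood stem cell niche factors (Cxcl12, Kitl, Angpt1, Vcam1, Il7, Il15, Thpo, Flt3l and Gas6) were followed in sorted mouse bone marrow stromal cells. The 9 genes were taken by name, not by a measured value, out of 52459 gene symbols in the count table, and each had a row there. Earlier results of these data were known when the genes were chosen. RNA was sequenced from 4 SS and 4 SA mice, 1 library per mouse. SS mice are Townes sickle mice homozygous for human sickle beta globin (hα/hα::βS/βS), with the human Aγ-globin gene on the same construct. SA mice are the controls (hα/hα::βA/βS), with 1 sickle and 1 normal human beta globin allele. Both genotypes carry human alpha globin too (allele Hbatm1(HBA)Tow, hα), so no group with mouse globins stands beside them. The labels name no treatment, age or sex. Sorted cells were live singlets without CD45, Ter119 or CD31 that carried both CD51 and CD140a, and these are bulk libraries of that gate, in which fewer cells of a type and less RNA per cell cannot be told apart.

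Blood stem cells are held and fed in marrow by perivascular stromal cells, which secrete or display a small set of ligands. Cxcl12 is the chemokine that retains stem cells through its receptor Cxcr4. Kitl is stem cell factor, the ligand of Kit, and Vcam1 is the adhesion molecule bound by the integrin of Itga4 and Itgb1. Angpt1 and Gas6 are ligands of the receptor kinases Tek and, for Gas6, Tyro3, Axl and Mertk. Il7 supports early B cells and Il15 natural killer and memory T cells. Flt3l acts on early progenitors and dendritic cells, and Thpo on stem cells and megakaryocytes, with the liver as its best known source.

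Total counts ran from 24797857 to 31117007 per library. All 10 listed markers of the sorted stromal cell were measured, with a summed level of 3923 to 9104 CPM (counts scaled to a common library total) in SA and 6694 to 9472 CPM in SS. The 15 pan-leukocyte markers summed to 844 to 5045 CPM in SA and 375 to 3019 CPM in SS, the 9 neutrophil markers to 5389 to 30916 and 1198 to 14774 CPM, and the 10 endothelial markers to 21.6 to 120 and 22.8 to 146 CPM. The 7 pericyte and smooth muscle markers summed to 531 to 619 CPM in SA and 1070 to 5910 CPM in SS, without overlap, and 7 of 7 had a higher mean in SS (0 passed by edgeR, 2 by DESeq2, Rgs5 and Notch3). Rgs5 was the largest part of this sum, with a mean of 347 CPM for SA and 1936 CPM for SS. The ranges of Acta2, Myh11, Tagln, Mcam and Des overlapped between genotypes. Those of Rgs5 and Notch3 did not, as for 3.91% of all genes. The 8 B cell markers, of which Ebf1 is also a stromal marker, summed to 488 to 1513 and 395 to 416 CPM (8 of 8 lower, 0 passing by edgeR and 3 by DESeq2). Ebf1 made up most of the SS sum, with a mean of 349 CPM there against 362 for SA. It was nearly flat between genotypes (log2 fold change -0.05), while the other B cell markers ran from -3.72 (Pax5) to -2.10 (Cd79b). The sums thus understate how much lower those markers were. The 7 megakaryocyte markers summed to 6.55 to 330 for SA and 6.25 to 35.9 CPM for SS (7 of 7 lower, median log2 fold change -3.30, 0 passing by edgeR and 1 by DESeq2). The 8 osteoblast markers summed to 2896 to 14854 CPM in SA and 2226 to 8873 CPM in SS (6 of 8 lower, 0 passing by edgeR and 0 by DESeq2). The 8 erythroid markers summed to 556 to 754 CPM in SA and 185 to 678 CPM in SS (6 of 8 lower, 0 passing by edgeR and 1 by DESeq2). Over all genes 49% had a positive log2 fold change, edgeR called 0% and DESeq2 called 1.65%. The part of these cell types in the genotype values of the niche factors was not tested. No marker of these lists was at 0 in every library. SS replicate 2 had 57347 Xist counts against at most 420 in the other libraries and 12 counts of the Y-linked Ddx3y against at least 2282. These are the counts of a female in SS replicate 2 and of males in the other libraries, though the labels name no sex. For SS replicate 4, the title of 1 of its lanes says SS while its mouse group says SA, and it was kept in SS. The date-like numbers in the titles form 3 sets, 1 for all SA libraries, 1 for SS replicates 1, 3 and 4, and 1 for SS replicate 2 alone, and genotype cannot be told apart from this number.

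Cxcl12 was the most abundant of the 9 factors in all 8 libraries. Its reads made up 1.59%, 1.09%, 2.31% and 2.26% of all counts of SA replicates 1 to 4, and 1.78%, 1.96%, 1.86% and 1.46% of those of SS replicates 1 to 4. The 95% Wilson interval was 1.083% to 1.090% at the lowest value and 2.307% to 2.318% at the highest, which covers counting error only. Levels of different genes were compared as TPM, counts divided by the total exon length of the gene and scaled to a common total. By TPM Cxcl12 ranked 14, 19, 11 and 11 among 48108 symbols with a known length for SA replicates 1 to 4, and 10, 12, 12 and 10 for SS replicates 1 to 4. The genes next to it by median rank were the mitochondrial transcript mt-Cytb and the predicted gene Gm24187 above and Mmp13, a collagenase, below.

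The other factors were spread over a wide range below it. Median TPM over the 8 libraries was 5116 for Cxcl12, 1472 for Gas6, 404 for Kitl, 224 for Vcam1, 59.2 for Angpt1, 30.7 for Il7, 28.6 for Il15, 8.15 for Flt3l and 0.129 for Thpo. Median ranks were 36.5 for Gas6, 103 for Kitl, 212 for Vcam1, 1206.5 for Angpt1, 2614 for Il7, 3019 for Il15, 8463.5 for Flt3l and 19493 for Thpo. The TPM ranges of neighbours in this order overlapped for Kitl and Vcam1, Angpt1 and Il7, Il7 and Il15, and Il15 and Flt3l. Kitl lay above Vcam1 in 7 of 8 libraries, Angpt1 above Il7 in 7, Il15 above Flt3l in 6 and Il7 above Il15 in 5. None of these orders held in every library. With median coding transcript length in place of total exon length, Cxcl12 had a median rank of 5, Kitl of 44, Gas6 of 72, Il7 of 2236 and Angpt1 of 2582.5. Kitl then stood above Gas6, and Il7 above Angpt1.

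**Figure D1:**
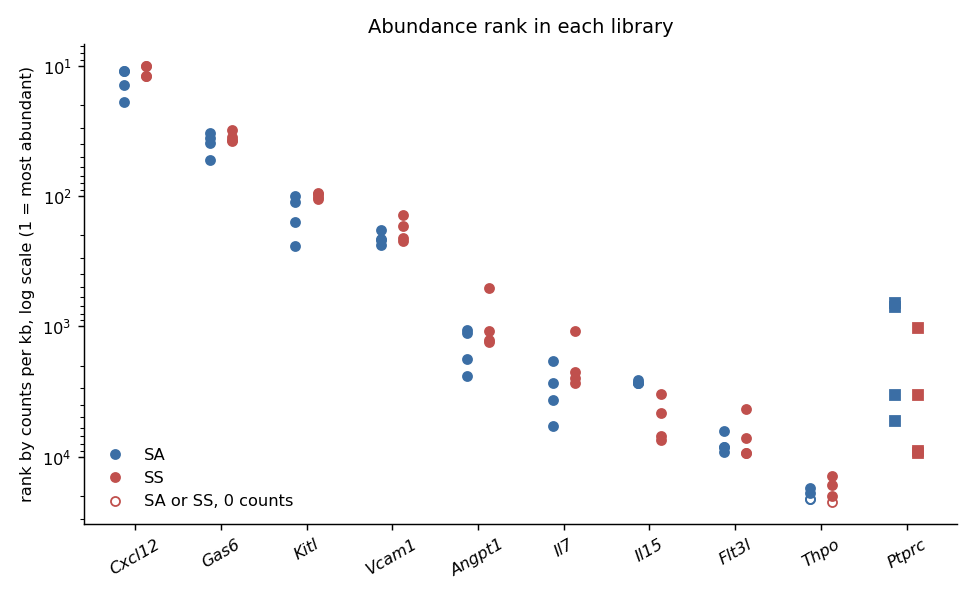
Rank of each niche factor and of Ptprc by counts per kb in each library, on a log axis with the most abundant at the top, in the 4 SA (blue) and 4 SS (red) libraries, with squares for Ptprc and open points for libraries with 0 counts. Cxcl12 lies between rank 10 and 19 in every library, and Thpo is last.

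Between genotypes none of the niche factors passed the test. edgeR called 0 of the 8 factors tested, against 0% of 17316 genes at an adjusted p under 0.05. 1 factor, Il15, had an unadjusted p under 0.05, as did 6.98% of all genes (2.96% lower in SS). DESeq2 called 0 of the 9 factors, Thpo included, against 1.65% of the 19321 genes it gave an adjusted p. By edgeR 7 of the 8 factors tested had a positive log2 fold change of SS over SA, against 49% of all genes. The median of the 8 was 0.27 beside -0.01 for all genes tested. With counts scaled to Pdgfra, which moved the median of all genes to -0.54, 3 of the 8 (Kitl, Angpt1 and Il7) had a positive value, and the same 7 lay above that median. With the leukocyte gene Ptprc as a covariate, Cxcl12 (-0.17), Flt3l (-0.26) and Gas6 (-0.09) lay below the median of all genes (-0.01), as did Il15. Without the 3 libraries highest in Ptprc, Cxcl12 (-0.31), Gas6 (-0.18) and Il15 lay below it (0.02). Kitl, Angpt1, Vcam1 and Il7 stayed above it in both fits. 1 of the 8 had ranges that did not overlap between genotypes, against 3.91% of all genes (1.55% lower in SS).

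**Figure D2:**
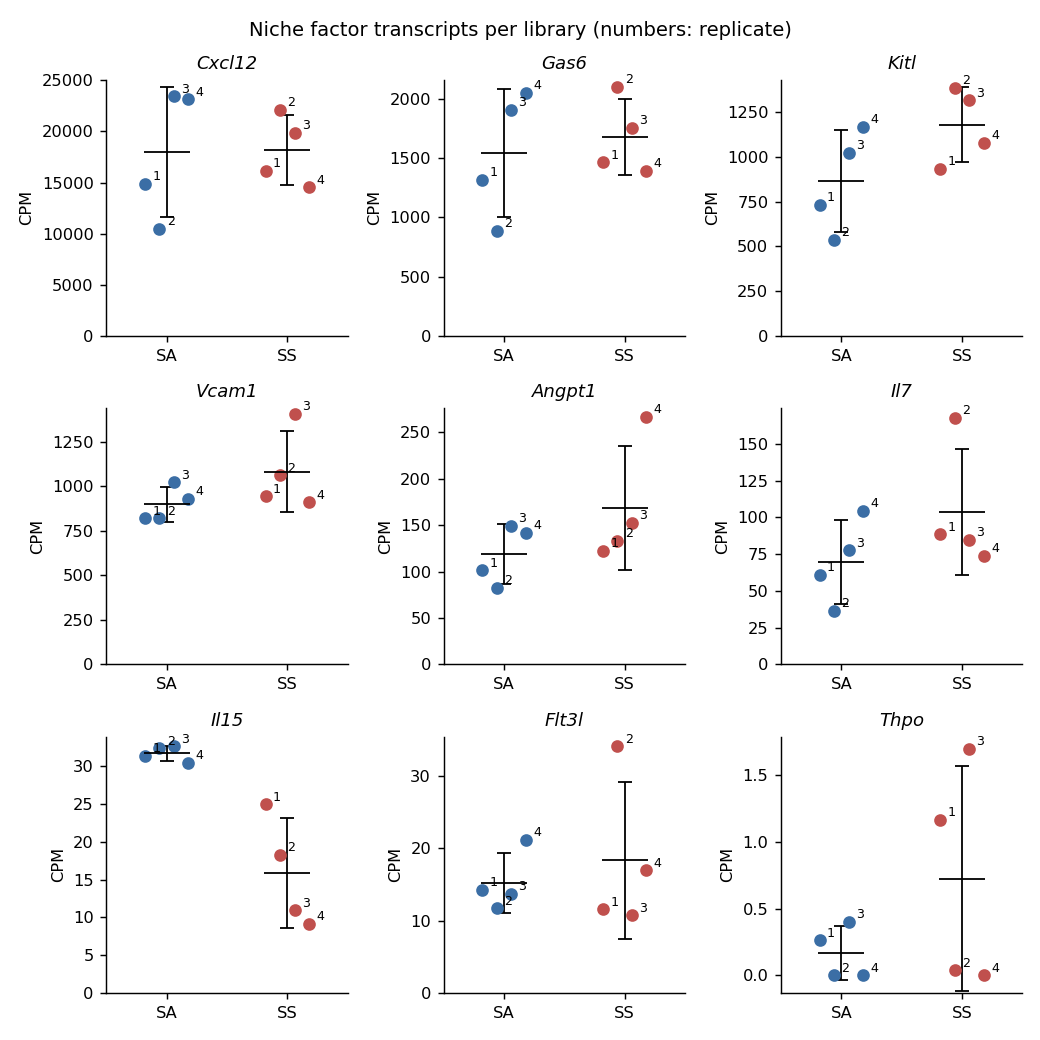
CPM of each niche factor in the 4 SA (blue) and 4 SS (red) libraries, numbered by replicate; bars are the mean and SD over 4 mice, and each panel has its own linear axis. Il15 is the factor whose 4 SS libraries (9.13 to 25.0 CPM) all lie below the 4 SA libraries (30.5 to 32.7 CPM).

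Il15 was the factor that differed most. It stood at 31.4, 32.4, 32.7 and 30.5 CPM in SA replicates 1 to 4 and at 25.0, 18.3, 11 and 9.13 CPM in SS replicates 1 to 4. The SA libraries were nearly equal, every SS library lay below them, and SS replicates 3 and 4 were lowest. Its mean was 31.7 ± 1.01 CPM for SA against 15.8 ± 7.28 CPM for SS (SD, n = 4 each), or 2.0-fold lower in SS. The log2 fold change was -1.0 (SE 0.36), with an unadjusted p of 0.0195 and an adjusted p of 0.695 by edgeR, and an adjusted p of 0.155 by DESeq2. These values rest on 828 to 976 counts per SA library and 283 to 710 per SS library. Pan-leukocyte transcripts were also lower in SS (15 of 15 markers, median log2 fold change -1.20, none of them passing by edgeR). Il15 had r with Ptprc of 0.40 within SA and 0.55 within SS (4 libraries each), and SS replicate 1 was highest of the SS libraries both in Il15 and in the leukocyte sum (3019 CPM). In SA, however, Ptprc ran from 124 to 748 CPM while Il15 stayed nearly equal. In SS, replicate 2 had less Ptprc (54.1 CPM) than replicate 3 (206 CPM) but more Il15. The part of leukocyte RNA in the Il15 difference was not tested. With Ptprc as a covariate the Il15 log2 fold change was -0.84, and without the 3 libraries highest in Ptprc it was -1.31. With 1 mouse left out it ran from -1.31 without SS replicate 1 to -0.81 without SS replicate 4.

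Cxcl12, which retains stem cells, did not separate the genotypes. It was at 14866, 10504, 23454 and 23132 CPM in SA replicates 1 to 4 and at 16157, 22101, 19899 and 14558 CPM in SS replicates 1 to 4. SA held both the lowest and the highest libraries, and the SS values lay between them. Its log2 fold change was 0.02 with an SE of 0.29, and the sign turned without SA replicate 1, SA replicate 2, SS replicate 2 or SS replicate 3 (-0.07, -0.17, -0.09 and -0.03) and in 5 further alternatives. The adhesion molecule Vcam1 was the steadiest of the 8, with a coefficient of variation of 19.1% over the 8 libraries. It was at 820, 820, 1021 and 929 CPM in SA replicates 1 to 4 and at 943, 1061, 1407 and 909 CPM in SS replicates 1 to 4. SS replicate 3 stood highest and the other SS libraries lay within or just above the SA range (log2 fold change 0.27, SE 0.20, and 0.12 without SS replicate 3).

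Among the receptor kinase ligands, Kitl, Angpt1 and Gas6 had positive log2 fold changes that did not pass. Kitl was at 734, 539, 1024 and 1170 CPM in SA replicates 1 to 4 and at 936, 1387, 1318 and 1079 CPM in SS replicates 1 to 4. SA replicates 1 and 2 were below every SS library, while SA replicates 3 and 4 were inside the SS range. Its log2 fold change was 0.45 (SE 0.26, edgeR adjusted p = 0.754), 0.28 without SA replicate 2 and 0.21 with Ptprc as a covariate. Angpt1 was at 101, 82.8, 149 and 142 CPM in SA replicates 1 to 4 and at 122, 133, 152 and 267 CPM in SS replicates 1 to 4. SS replicate 4 alone was far above the rest, and the log2 fold change of 0.50 (SE 0.29) was 0.19 without it and 0.16 with Ptprc as a covariate. Gas6 ran from 887 to 2048 CPM in SA and from 1393 to 2098 CPM in SS, with a log2 fold change of 0.12 (SE 0.28). Its sign turned without SA replicate 2 (-0.07) or SS replicate 2 (-0.0023), with Ptprc as a covariate (-0.09) and without the 3 libraries highest in Ptprc (-0.18).

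The lymphoid and progenitor cytokines Il7 and Flt3l were highest in the same library, SS replicate 2, which also stands alone in its date-like title number and its Xist counts. Il7 was at 60.9, 36.6, 77.6 and 105 CPM in SA replicates 1 to 4 and at 88.4, 168, 84.7 and 73.7 CPM in SS replicates 1 to 4. The genotypes overlapped, and its log2 fold change of 0.57 (SE 0.35) was 0.24 without SS replicate 2 and 0.27 with Ptprc as a covariate. Flt3l was at 14.2, 11.7, 13.7 and 21.1 CPM in SA replicates 1 to 4 and at 11.6, 34.1, 10.7 and 17.0 CPM in SS replicates 1 to 4. Again SS replicate 2 was highest, and SS replicates 1 and 3 were below every SA library. Its log2 fold change of 0.27 (SE 0.44) turned to -0.21 without SS replicate 2. Thpo had 7, 0, 12 and 0 counts in SA replicates 1 to 4 and 33, 1, 48 and 0 counts in SS replicates 1 to 4. A floor of 3 counts corresponds to 0.0964 to 0.121 CPM of the raw totals. No Thpo read was found in 2 SA libraries and 1 SS library. Thpo did not pass the filter on low counts of the edgeR test, and without that filter its log2 fold change was 2.09 (SE 2.09, edgeR adjusted p = 0.688). DESeq2 gave 2.12 (SE 2.13, adjusted p = 0.775).

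**Figure D3:**
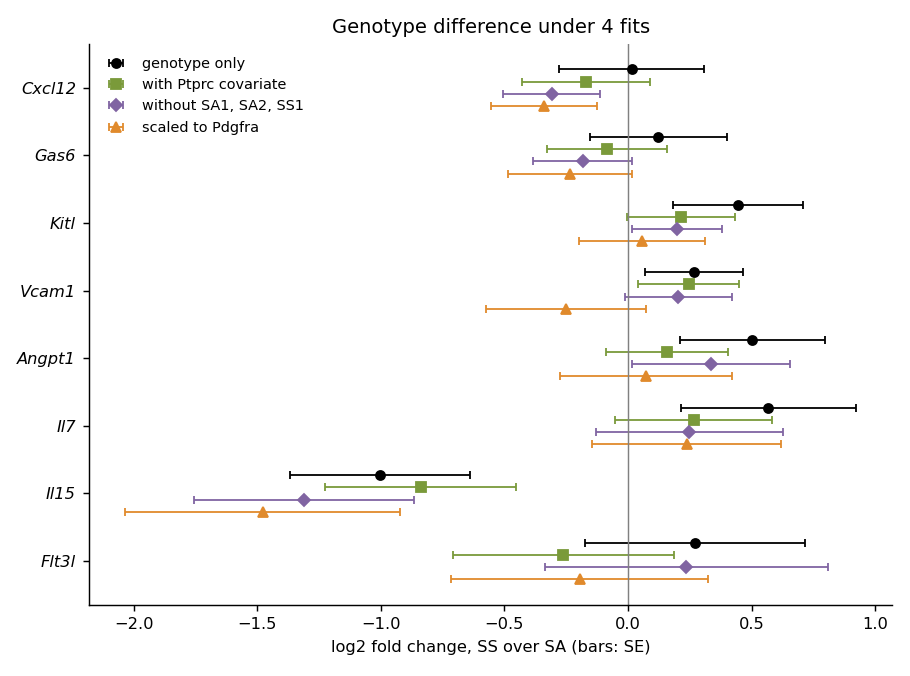
Log2 fold change of SS over SA with its SE for the 8 tested factors, fitted with genotype alone (circles), with Ptprc as a covariate (squares), without SA replicates 1 and 2 and SS replicate 1 (diamonds) and scaled to Pdgfra counts (triangles). Il15 is below 0 in all 4 fits, and Cxcl12 is at 0.02 with genotype alone and below 0 in the other 3.

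Several factors share exonic bases with a neighbouring gene, and no source used here gives the strand setting of the counts. The antisense gene Gm16685 covers 105 exonic bases of Il7 (1.85%) and had 186 to 876 counts per library, and Gm17473 covers 14.2% of the exonic bases of Angpt1 with at most 80 counts. Gm45713, on the same strand as Flt3l, covers 22.1% of its exonic bases and had 0 counts in every library. The strand setting cannot separate Gm45713 from Flt3l. Chrd, on the opposite strand, covers 9.09% of Thpo with at most 63 counts. Reads in these stretches cannot be assigned with certainty. On GRCm38 (GENCODE M21) Cxcl12 lies on chromosome 6 (117168535 to 117181367), Kitl on chromosome 10 (100015630 to 100100416), Angpt1 on chromosome 15 (42424723 to 42676977), Vcam1 and Il7 on chromosome 3 (116109949 to 116129688 and 7569994 to 7613760), Il15 and Gas6 on chromosome 8 (82331632 to 82403222 and 13465374 to 13494490), Thpo on chromosome 16 (20724454 to 20734511) and Flt3l on chromosome 7 (45129788 to 45136432). Each is annotated as protein-coding.

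The relation to Ptprc, which encodes the leukocyte antigen CD45 that the sort gated out, was examined next. Ptprc was at 748, 735, 209 and 124 CPM in SA replicates 1 to 4 and at 499, 54.1, 206 and 49.7 CPM in SS replicates 1 to 4. SA replicates 1 and 2 and SS replicate 1 were highest, and SS replicates 2 and 4 lowest. Per length, Cxcl12, Gas6, Kitl and Vcam1 exceeded Ptprc in all 8 libraries, Cxcl12 by 32.0-fold in SA replicate 2 and by 915-fold in SS replicate 2. Kitl exceeded it by 2.27-fold in SA replicate 2 and by 79.4-fold in SS replicate 2. Angpt1 and Il7 exceeded it in 5 libraries, Il15 in 4, Flt3l in 2 and Thpo in none.

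7 of the 8 tested factors had a negative slope on Ptprc and Il15 a positive one. The slope is the log2 change of a gene per doubling of Ptprc CPM in an edgeR fit that also holds genotype. By that test 0 of the 8 factors passed, against 2.97% of all genes (0.462% falling). 3 of the 8 (Kitl, Angpt1 and Il7) had a negative slope with an unadjusted p under 0.05, against 6.75% of all genes, and 7 of 8 slopes were below 0, against 52.9% of all genes. The slope was -0.24 for Angpt1 (SE 0.09, edgeR adjusted p = 0.189), -0.19 for Kitl (SE 0.08, edgeR adjusted p = 0.262) and -0.25 for Il7 (SE 0.11, edgeR adjusted p = 0.317). For Cxcl12 it was -0.17 (SE 0.10), for Gas6 -0.18 (SE 0.09) and for Flt3l -0.32 (SE 0.15). Vcam1 was nearly flat at -0.02 (SE 0.07), with its sign turned without SA replicate 1, SA replicate 3 or SS replicate 1 (0.0091, 0.0073 and 0.03). Il15 was at 0.14 (SE 0.13), and at -0.04 without SS replicate 1. The sorted antigens Pdgfra (CD140a) and Itgav (CD51) each had a slope of -0.24 (SE 0.10 and 0.07). Lepr, the leptin receptor of these stromal cells, had -0.18 (SE 0.11), and each of these lay within the range of the niche factors. Between genotypes Itgav had a log2 fold change of 0.82 (SE 0.27, edgeR adjusted p = 0.695). That of Pdgfra was 0.32 (SE 0.31, edgeR adjusted p = 0.846).

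Over the 8 libraries without regard to genotype, Kitl and Angpt1 had the strongest relation to Ptprc among the 8 tested factors, by log2 CPM. For Kitl Pearson's r was -0.79 (two-sided exact permutation p = 0.0171, adjusted over all genes 0.168, n = 8) and Spearman's rho -0.81 (exact permutation p = 0.0218, adjusted 0.199). For Angpt1 r was -0.80 (exact permutation p = 0.0103, adjusted 0.139, n = 8) and rho -0.76 (exact permutation p = 0.0368, adjusted 0.249). Neither passed over all genes, of which 1.5% did by Pearson's r. For Cxcl12 r was -0.52 (exact permutation p = 0.183, adjusted 0.476, n = 8) and rho -0.29 (exact permutation p = 0.501, adjusted 0.770). For Il15 r was 0.62 (exact permutation p = 0.100, adjusted 0.363, n = 8) and rho 0.69 (exact permutation p = 0.0694, adjusted 0.325). The other 4 factors had r from -0.71 (Flt3l) to -0.35 (Vcam1). The sorted antigen Itgav had r of -0.83 (exact permutation p = 0.0111, adjusted 0.143, n = 8), farther from 0 than any factor, and Pdgfra -0.75.

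Within genotypes r was farther from 0 in SA than in SS for every tested factor but Il15 (0.40 and 0.55). This is a description over 4 libraries each with no test of the difference. Cxcl12 had r of -0.90 within SA and -0.12 within SS, Gas6 -0.89 and -0.29, and Kitl -0.93 and -0.52. Angpt1 had -0.91 and -0.61, Vcam1 -0.82 and 0.18, Il7 -0.88 and -0.33, and Flt3l, nearly equal, -0.78 and -0.76. The same held for Lepr (-0.90 and 0.0040), Pdgfra (-0.89 and -0.63) and Itgav (-0.997 and -0.68). Without SS replicates 2 and 4, the libraries farthest from the median Ptprc level, r over the other 6 was -0.89 for Cxcl12, -0.85 for Kitl, -0.87 for Angpt1 and 0.29 for Il15. SS replicate 4 had the lowest Ptprc level and also the lowest SS level of Cxcl12 and Gas6. The log2 levels of Ptprc spanned 3.91 with 2 gaps of similar size, 1.26 and 1.2, that set SA replicates 1 and 2 and SS replicate 1 at the top and SS replicates 2 and 4 at the bottom. The values of r over 8 libraries rest on these steps as well as on the spread within them.

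**Figure D4:**
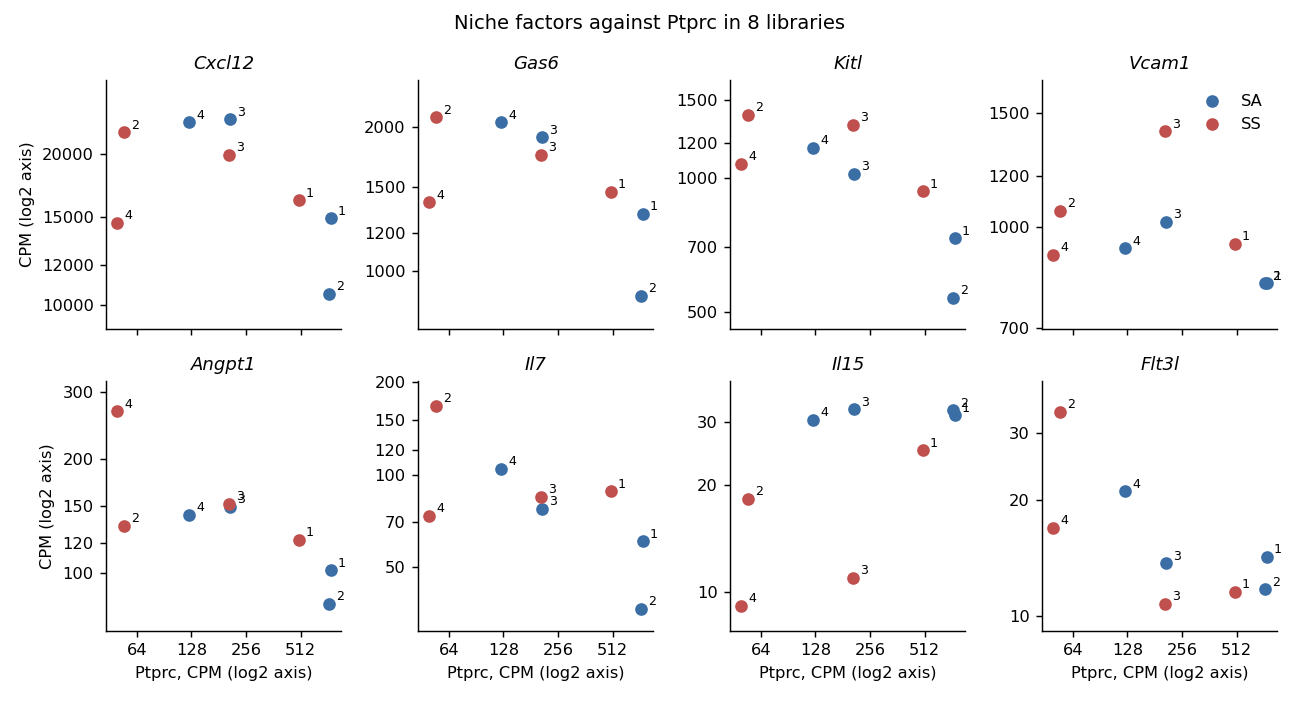
CPM of the 8 tested factors against CPM of Ptprc in the 4 SA (blue) and 4 SS (red) libraries, numbered by replicate, on log2 axes. r is -0.79 for Kitl and -0.80 for Angpt1, and Il15 stays within 30.5 to 32.7 CPM in SA.

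Cxcl12 and Gas6 kept nearly the same ratio in every library. Per 1000 Cxcl12 reads Gas6 had 88.6, 84.4, 81.3 and 88.5 reads for SA replicates 1 to 4, and 90.5, 94.9, 88.0 and 95.7 for SS replicates 1 to 4. The highest ratio was 1.18 times the lowest, whereas Gas6 CPM itself varied by 2.37 times and Cxcl12 CPM by 2.23 times. Lepr behaved likewise, at 105 to 126 reads per 1000 Cxcl12 reads (1.21 times). Kitl did not keep that ratio. It had 49.4, 51.3, 43.7 and 50.6 reads per 1000 Cxcl12 reads for SA replicates 1 to 4, and 57.9, 62.7, 66.2 and 74.1 for SS replicates 1 to 4. Every SS library was above every SA library, with means of 48.7 ± 3.47 and 65.3 ± 6.83 (SD, n = 4 each). Among the 7 tested factors besides Cxcl12, Kitl was the 1 whose ratio did not overlap, against 3.41% of all genes by the same measure (2.61% higher in SS). Scaled to Cxcl12 counts, the edgeR log2 fold change of Kitl was 0.42 (adjusted p = 0.849) and did not pass. This ratio was chosen after the values had been seen. Il15 had 1.32 to 3.09 reads per 1000 Cxcl12 reads in SA and 0.551 to 1.55 in SS, which overlap.

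**Figure D5:**
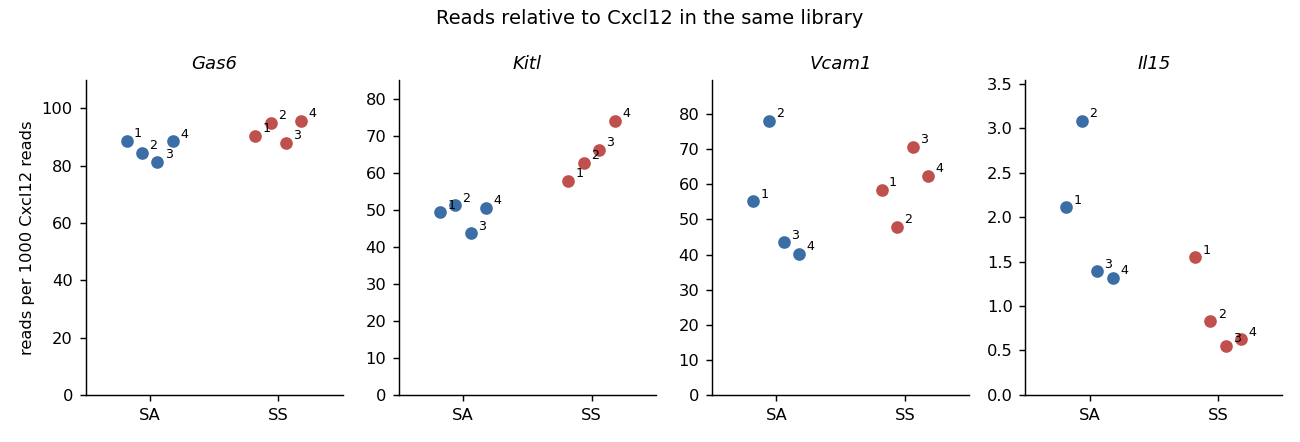
Reads of Gas6, Kitl, Vcam1 and Il15 per 1000 Cxcl12 reads of the same library in SA (blue) and SS (red), numbered by replicate, on linear axes that start at 0. Gas6 stays between 81.3 and 95.7, and the 4 Kitl ratios in SS (57.9 to 74.1) lie above the 4 in SA (43.7 to 51.3).

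Across 10728 named genes whose mean was 5 CPM or more, the levels most like Cxcl12 over the 8 libraries were those of Lepr (Pearson's r 0.99 of log2 CPM), Nrp2, a neuropilin co-receptor (0.98), and Gas6 (0.98). These 8 libraries share depth and scaling, and the values are descriptions. Those most like Kitl were Rbms1, an RNA-binding protein (0.995), Pam, a peptide-amidating enzyme (0.99), and Tln2, a talin (0.99). Angpt1 was most like Nt5dc2 (0.98), Cd248, the stromal sialomucin endosialin (0.98), and Lpl, lipoprotein lipase (0.97). Vcam1 was most like Tia1 (0.97), Irak1 (0.97) and Tmed1 (0.96). Among the factors themselves Kitl had r of 0.90 with Gas6, 0.89 with Il7 and 0.83 with Cxcl12, while Angpt1 had 0.35 with Cxcl12. Il15 had r of -0.03 with Cxcl12, -0.55 with Kitl and -0.75 with Angpt1.

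RefSeq promoter sequences on GRCm38.p6 (250 bases before to 50 after the start) were found for 5 of the 9 factors. Those of Cxcl12, Gas6 and Kitl are shown because these 3 were the most abundant and varied together over the libraries. Capitals mark matches to GGGCGG (the GC box) or TATAAA (the TATA box) on either strand, each read 5′ to 3′ along the gene.

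Cxcl12 (chr6:117168285-117168584, plus strand): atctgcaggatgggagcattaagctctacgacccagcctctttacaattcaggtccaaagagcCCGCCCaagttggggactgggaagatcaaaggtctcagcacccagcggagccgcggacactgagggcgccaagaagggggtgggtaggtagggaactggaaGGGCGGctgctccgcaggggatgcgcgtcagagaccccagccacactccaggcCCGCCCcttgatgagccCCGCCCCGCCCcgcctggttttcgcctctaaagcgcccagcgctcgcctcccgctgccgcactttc

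Gas6 (chr8:13494486-13494785, minus strand): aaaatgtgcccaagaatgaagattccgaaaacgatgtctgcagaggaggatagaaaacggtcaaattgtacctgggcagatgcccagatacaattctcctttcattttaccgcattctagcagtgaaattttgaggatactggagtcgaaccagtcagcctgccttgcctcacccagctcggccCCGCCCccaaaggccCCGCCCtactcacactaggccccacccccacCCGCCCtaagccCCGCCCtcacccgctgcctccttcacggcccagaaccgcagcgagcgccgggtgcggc

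Kitl (chr10:100015571-100015870, plus strand): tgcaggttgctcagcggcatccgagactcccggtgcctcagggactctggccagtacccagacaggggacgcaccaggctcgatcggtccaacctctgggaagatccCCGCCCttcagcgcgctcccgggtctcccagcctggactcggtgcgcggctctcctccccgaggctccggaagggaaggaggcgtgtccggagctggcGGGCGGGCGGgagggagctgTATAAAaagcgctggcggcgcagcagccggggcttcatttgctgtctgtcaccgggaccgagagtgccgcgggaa

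GGGCGG had 5 matches in the Cxcl12 window, 4 in Gas6 and 3 in Kitl, where neighbouring matches overlap in Cxcl12 and Kitl. It is held by 35.7% of 32851 promoter windows of that length. TATAAA had 1 match, in Kitl, and is held by 13.6% of the windows. The core of the motif of Ebf factors, CCCNNGGG, and a forkhead core, TAAACA, were searched as well, since Ebf1, Ebf3 and Foxc1 are transcription factors of these stromal cells. They are held by 13.7% and 13.4% of the windows, and those letters are not in the 3 windows shown. A match is a description and not a binding site.

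The genes on which these factors act were described from 3 further lists. Of 15 receptor genes 6 had a positive and 9 a negative log2 fold change (median -0.14), 0 passed by edgeR, 5 had an unadjusted p under 0.05, and DESeq2 called 1, Il7r. Over all genes 49% were positive, 6.98% had such an unadjusted p and DESeq2 called 1.65%. Il7r, the receptor of Il7, averaged 29.1 ± 27.4 CPM for SA against 4.06 ± 2.28 CPM for SS (SD, n = 4 each; log2 fold change -2.84, SE 0.77, edgeR adjusted p = 0.604, DESeq2 adjusted p = 0.0191). Cxcr4, the receptor of Cxcl12, averaged 97.9 ± 76.9 CPM for SA against 29.9 ± 23.9 CPM for SS, and had a slope on Ptprc of 0.76 (edgeR adjusted p = 0.0132), and its level thus rose with that leukocyte gene. Tek, a receptor of Angpt1, rose with it too (slope 1.52, edgeR adjusted p = 0.0442), at a mean of 3.24 CPM for SA and 2.18 CPM for SS. Axl, a receptor of Gas6, was at 126 ± 40.7 and 232 ± 111 CPM (log2 fold change 0.88, SE 0.34). Of 10 proteases and antagonists that act on the factors, 6 were positive and 4 negative (median 0.13), with 0 passing by edgeR, 3 at an unadjusted p under 0.05 and 0 by DESeq2. Mmp2, a gelatinase, averaged 132 ± 56.3 CPM for SA against 361 ± 153 CPM for SS (log2 fold change 1.45, SE 0.40), with a slope on Ptprc of -0.45 (edgeR adjusted p = 0.0136). Mmp9, also a gelatinase, had a slope of the other sign, 0.72 (edgeR adjusted p = 0.000248). By this slope test 2.97% of all genes passed. The neutrophil protease Ctsg was at 27.9 ± 16.9 and 9.71 ± 3.81 CPM, and Pros1, protein S, a relative of Gas6, at 144 ± 41.3 and 248 ± 101 CPM.

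Of 19 tested genes for other secreted niche factors 15 were positive and 4 negative (median 0.66), 0 passed by edgeR, 6 had an unadjusted p under 0.05 and DESeq2 called 2, Il34 and Ptn, beside the same 49%, 6.98% and 1.65% of all genes. Il34, a ligand of the receptor of M-CSF, ran from 41.8 to 105 CPM in SA and from 23.9 to 29.8 CPM in SS (log2 fold change -1.32, SE 0.32, edgeR adjusted p = 0.520). Il34 and Il15 thus shared the direction and the lack of overlap between genotypes, as did 1.55% of all genes. Igf1, insulin-like growth factor 1, ran from 350 to 478 CPM in SA and from 494 to 819 CPM in SS, also without overlap (log2 fold change 0.70, SE 0.20). Ranges without overlap in either direction were held by 3.91% of all genes. Il34 and Igf1 were named for their small p in this comparison, which favours ranges without overlap. Ptn, pleiotrophin, ran from 1.41 to 5.11 CPM in SA and from 1.44 to 107 CPM in SS, with overlap. On Ptprc, Mdk had a slope of -0.76 (edgeR adjusted p = 0.00613) and Spp1 of -0.65 (edgeR adjusted p = 0.0153). For comparison, the sorted stromal markers had a median log2 fold change of 0.31 (8 of 10 positive, 0 passing by edgeR), close to the 0.27 of the niche factors.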

How the data were processed

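The table the authors deposited gives raw counts for each gene symbol, 1 column per mouse for 2 lanes each (16 samples), and a second table on another scale that was not used. Tools named in the submitters' processing notes are bcl2fastq, STAR, featureCounts and DESeq2, and the builds are mm10 and GRCm38, with no version or role. Counts were tested here with edgeR 4.0.16 (filterByExpr, TMM factors, robust quasi-likelihood F test, Benjamini-Hochberg over 17316 genes, threshold 0.05), with DESeq2 1.42.0 and limma 3.58.1 as alternatives, in R 4.3.3. The SE is the log2 fold change over the root of F. CPM uses TMM-adjusted totals, and log2 CPM a prior count of 2. TPM uses total exon length in GENCODE M21, matched by symbol (91.7% of symbols). Exact permutation tests used all 40320 orders of 8 libraries and the absolute correlation. Tests were checked on simulated data. The niche factors and lists were chosen with earlier results of these data known. Named are the 9 factors, Ptprc, Pdgfra, Itgav and Lepr, the 3 genes of smallest p per list, the 3 most similar to each of 4 factors, and the neighbours of Cxcl12 in rank. Genes of the 3 further lists that passed on Ptprc are named as well. No label says that the mice of a genotype are separate animals beyond their numbers. Otherwise the p-values cover the spread of these libraries alone, which may be technical.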

Additional observations from a re-analysis of the deposited data

Results flagged for a closer look

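1 niche factor had a library far from the others of its genotype. Il7 was at 168 CPM in SS replicate 2 while the other SS libraries lay between 73.7 and 88.4 CPM. Its gap to the next library was 0.843 of the range of the 4 SS libraries, above Dixon's 95% critical value for 4 values. 18 groups of 4 were examined, and chance alone gives about 1 such gap in 20. That library was also the highest in Flt3l and the library with high Xist counts, and its title has a date-like number of its own. Their part in the Il7 value was not tested.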

How the results depend on the processing

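edgeR called 0 genes between genotypes, and 319 were called by DESeq2, 5 with no low-count filter, 1 with Ptprc as a covariate, and 0 to 1 with each mouse left out (1 without SS replicate 1). At an unadjusted p under 0.05 edgeR had 1209 genes. No alternative called a niche factor, between genotypes or on Ptprc. The count of genes with a slope on Ptprc was 515, 777 among genes of at least 5 CPM, 943 without the genotype term, 0 with the replicate block, and 149 to 733 with each mouse left out (271, 262, 326 and 235 without SA replicates 1 to 4 and 149 without SS replicate 1). The replicate number as a block called 0 genes between genotypes. Same-numbered libraries did not deviate together (r from -0.15 to 0.22), so the numbers were not taken as pairs, and the Il15 slope was -0.091 under the block. Scaling to Pdgfra shifted the median of all genes to -0.54. Cxcl12 was then at -0.34, Vcam1 at -0.25, Flt3l at -0.20 and Gas6 at -0.23, each above that median, and Il15 0.94 below it. The log2 fold change of Cxcl12 also turned with sample weights in limma-voom (-0.0013), raw totals (-0.040), Ptprc as a covariate (-0.17) and without the 3 libraries highest in Ptprc (-0.31). With Ptprc as a covariate Flt3l was at -0.26 and Gas6 at -0.086, and without those 3 libraries Gas6 was at -0.18. With each mouse left out Cxcl12 ran from -0.17 to 0.16, Gas6 from -0.067 to 0.29 and Flt3l from -0.21 to 0.48. Over the same omissions the slope of Vcam1 ran from -0.066 to 0.029 and that of Il15 from -0.038 to 0.23. The cause of these turns was not tested. Il15 stayed lower in SS in all 21 alternatives (-1.48 to -0.81, adjusted p from 0.155 to 0.960), and Kitl, Angpt1 and Il7 stayed higher, at 0.21, 0.16 and 0.27 with Ptprc as a covariate, 0.06, 0.07 and 0.24 scaled to Pdgfra, and 0.20, 0.34 and 0.25 without the 3 libraries highest in Ptprc. Leaving out the 3 libraries highest in Ptprc, scaling to Cxcl12 and coding transcript length were chosen after seeing the data.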
